A study of Mus musculus with 2 samples.

Results

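The brush border is the carpet of microvilli on the apical face of intestinal absorptive cells. The 9 genes described here encode proteins of it, and they were taken by name: the hydrolases *Sis*, *Alpi*, *Anpep*, *Enpep*, *Dpp4* and *Mep1a*, the nutrient transporters *Slc5a1* and *Slc15a1*, and the microvillus protein *Vil1*. All 9 were listed in both count tables, among 16061 genes in the control and 15786 in the *Taf4IEC* library. Both libraries came from enteroids, that is, three-dimensional cultures of intestinal epithelium grown from ileal crypts of 4-month-old C57Bl6/129sv mice. *Taf4IEC* enteroids carry floxed alleles of *Taf4*, which encodes a subunit of TFIID, the factor that places RNA polymerase II at promoters, and the VilCreERT2 transgene, in which villin regulatory sequences drive a tamoxifen-inducible Cre in the epithelium, and they were given 1 µM 4-hydroxytamoxifen (4-OHT) for 3 days. The control enteroids are *Taf4* lox/lox without Cre and treated with 4-OHT in the methods of the study, whereas their label names wild-type organoids treated with ethanol, the solvent of 4-OHT. Live cells were sorted and captured on the 10X Genomics platform at the end of the treatment.

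Brush border hydrolases complete digestion at the cell surface, where they cut disaccharides, peptides and phosphate esters, and the transporters beside them carry the resulting sugars and peptides into the cell. Enterocytes switch these genes on as they leave the crypt, where the stem cells divide, and secretory lineages arise in the same crypts, namely enteroendocrine cells, which release hormones, and Paneth and goblet cells, which release antimicrobial peptides and mucus. *Cdx2*, *Hnf4a* and *Gata4* encode transcription factors long known to act on brush border genes.

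The promoters of the 9 genes differ in the motifs they hold. The 150 bases before the RefSeq start of 5 of them follow (GRCm38.p6, the build of the files, each read 5′ to 3′ on the strand of its gene). *Sis* and *Slc5a1* are shown for their high levels, *Alpi* and *Anpep* for the largest differences between the libraries, and *Enpep* because it followed *Alpi* across cell classes. Capitals mark, on either strand, the TATA box TATAAA, the CDX core TTTAT, the HNF4 core CAAAGNNCA and the GATA core AGATAA.
*Sis*: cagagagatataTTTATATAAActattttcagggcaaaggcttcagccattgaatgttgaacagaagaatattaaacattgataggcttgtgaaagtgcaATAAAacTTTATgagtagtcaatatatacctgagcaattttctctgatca
*Alpi*: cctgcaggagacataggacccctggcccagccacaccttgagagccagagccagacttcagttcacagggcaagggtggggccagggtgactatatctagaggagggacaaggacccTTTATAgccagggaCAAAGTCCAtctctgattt
*Enpep*: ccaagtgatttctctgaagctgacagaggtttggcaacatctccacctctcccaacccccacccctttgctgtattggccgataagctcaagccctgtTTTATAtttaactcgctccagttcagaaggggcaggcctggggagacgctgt
*Anpep*: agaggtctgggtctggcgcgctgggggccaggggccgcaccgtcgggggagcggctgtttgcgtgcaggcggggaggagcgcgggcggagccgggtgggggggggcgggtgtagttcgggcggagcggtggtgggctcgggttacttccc
*Slc5a1*: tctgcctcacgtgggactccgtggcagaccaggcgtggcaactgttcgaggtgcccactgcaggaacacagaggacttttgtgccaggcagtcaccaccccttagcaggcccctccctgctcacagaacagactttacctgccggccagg
*Sis* (sequence chr3:72967864-72968013, minus strand) held 2 copies of TTTAT on opposite strands at bases 50 to 39 before its start, a pair that lies in the element by which Cdx2 is known to act on this gene, and a further overlapping run of TATAAA and TTTAT from base 138. *Alpi* (chr1:87101607-87101756, minus strand) held TATAAA on the opposite strand 33 bases before the start and the HNF4 core 19 bases before it. *Enpep* (chr3:129332750-129332899, minus strand) held TATAAA on the opposite strand at base 52, and TTTAT overlaps TATAAA there and in *Alpi*. None of the 4 motifs was found in the windows of *Anpep* (chr7:79848211-79848360, minus strand) or *Slc5a1* (chr5:33104069-33104218, plus strand). In the full 250 bases before the start, TATAAA lay in 4 of the 9 genes and in 12.4% of 32851 RefSeq promoters, TTTAT in 4 and 37.3%, CAAAGNNCA in 1 and 5.49%, and AGATAA in 1 and 9.99%. TATAAA contains TTTAT on the opposite strand, so that every promoter counted for the first is counted for the second. Of the 9 genes, only *Sis* held TTTAT outside a TATAAA. The AGATAA was in *Dpp4*, 32 bases before its start. A match describes letters only, and binding was not measured here.

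With 1 library per condition no test between them was possible, and every interval is a 95% interval of counting alone, exact Poisson for a level, exact conditional binomial for a log2 ratio and Clopper-Pearson for a share of cells. The control library held 39947009 unique molecular identifiers (UMIs, 1 per captured molecule) in 2563 cells and the *Taf4IEC* library 24990128 in 1811. Median depth was 16749 and 2254 UMIs per cell, 17.3% and 49.1% of cells held under 2000 UMIs, and 2 cell barcodes occurred in both libraries. *Taf4* itself counted 0.0696 (0.0617 to 0.0783) and 0.0944 (0.0828 to 0.107) UMIs per 10000, so that it was not lower in the *Taf4IEC* library. Whether the 3′ reads lie outside the deleted part is not given in the sources used here, so that *Taf4* counts do not check the label. Of 9 markers of immune, stromal and endothelial cells, 4 and 5 had a UMI, at 0.0095 and 0.031 UMIs per 10000 summed, and *Ptprc* was at 0 in both.

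Over all cells, 8 of the 9 genes were higher in the *Taf4IEC* library by a counting interval above 0, and *Mep1a*, a metalloprotease subunit, was not. How many of all genes had such an interval was not computed. In the other lists described below, 8 of 10 hydrolases, 14 of 16 transporters and 15 of 16 structural genes had one, while 1, 1 and 0 had one below 0. Summed, the 9 genes stood at 6.27 (6.20 to 6.35) UMIs per 10000 in the control and 16.0 (15.9 to 16.2) in the *Taf4IEC* library, 2.55-fold higher. Of these, 6 of 9 were at least 2-fold higher, where 5.52% of the 10002 genes with at least 200 UMIs were, and 0 of 9 were at least 2-fold lower, where 3.48% of the genes were. The median log2 ratio was 1.27 over the 9 genes and 0.16 over all 10002.

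Among the hydrolases, *Sis*, the sucrase-isomaltase that splits sucrose and starch products, was the most abundant in both libraries, with 51.4% and 54.2% of the UMIs of the 9 genes. *Sis* (chr3:72888557-72967863) gave 3.23 (3.17 to 3.28) UMIs per 10000 in the control and 8.67 (8.56 to 8.79) in the *Taf4IEC* library, a log2 ratio of 1.43 (1.39 to 1.46). *Anpep* (chr7:79821803-79848210), aminopeptidase N, differed most, at 0.0756 (0.0673 to 0.0846) and 0.941 (0.904 to 0.980), for a log2 ratio of 3.64 (3.46 to 3.82). *Alpi* (chr1:87098002-87101606), the intestinal alkaline phosphatase, stood at 0.0270 (0.0222 to 0.0326) and 0.149 (0.134 to 0.165), for a log2 ratio of 2.46 (2.15 to 2.79). For these 3 genes the intervals of the 2 libraries lay far apart. *Enpep* (chr3:129269177-129332749), aminopeptidase A, had a log2 ratio of 1.54 (1.37 to 1.70), from 0.117 to 0.341 UMIs per 10000. *Dpp4* (chr2:62330073-62412315), the dipeptidyl peptidase that also inactivates incretin hormones, had one of 0.81 (0.72 to 0.89), from 0.530 to 0.928. *Mep1a* (chr17:43474324-43504143) stood at 0.0546 (0.0476 to 0.0623) and 0.0468 (0.0387 to 0.0561), with a log2 ratio of -0.22 (-0.56 to 0.11), so that its intervals overlapped.

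Of the transporters, *Slc5a1* (chr5:33104219-33162699), which takes up glucose and galactose with sodium, stood at 1.16 (1.13 to 1.19) and 2.80 (2.73 to 2.87) UMIs per 10000, and its log2 ratio was 1.27 (1.22 to 1.32). *Slc15a1* (chr14:121459621-121505254), which takes up di- and tripeptides with protons, was rare, with 93 and 117 UMIs and a log2 ratio of 1.01 (0.60 to 1.42). *Vil1* (chr1:74409384-74435560), villin, which bundles the actin of microvilli, stood at 1.06 (1.03 to 1.09) and 2.09 (2.03 to 2.15), for a log2 ratio of 0.98 (0.92 to 1.04) that missed 2-fold. The order of levels in the control was *Sis*, *Slc5a1*, *Vil1*, *Dpp4*, *Enpep*, *Anpep*, *Mep1a*, *Alpi* and *Slc15a1*. Its last 2 had overlapping intervals, and *Anpep* alone moved by more than 1 place upward in the *Taf4IEC* library, where its interval overlapped that of *Dpp4*.

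Clusters of each library were named from markers other than the 9 genes, which were also kept out of the clustering. Enterocyte-like cells numbered 232 in the control (2 clusters) and 165 in the *Taf4IEC* library (1 cluster), stem-like cells 1107 and 429, enteroendocrine-like cells 260 and 201, and Paneth/goblet-like cells 190 and 185, while 684 and 816 cells stayed unnamed. By share of UMIs, enterocyte-like cells made up 11.1% and 18.0% of the libraries and stem-like cells 57.4% and 36.6%. When each class of the *Taf4IEC* library was weighted by its share of UMIs in the control, the summed log2 ratio went from 1.35 (1.33 to 1.37) to 0.83, and 2 of the 9 genes (*Alpi* and *Anpep*) were at least 2-fold higher. Tuft-like cells (90 and 15) were not compared, since the leading genes of the control cluster included *Dll1* and *Insm1* and it held 6 UMIs of the tuft marker *Dclk1*.

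**Figure D1:**
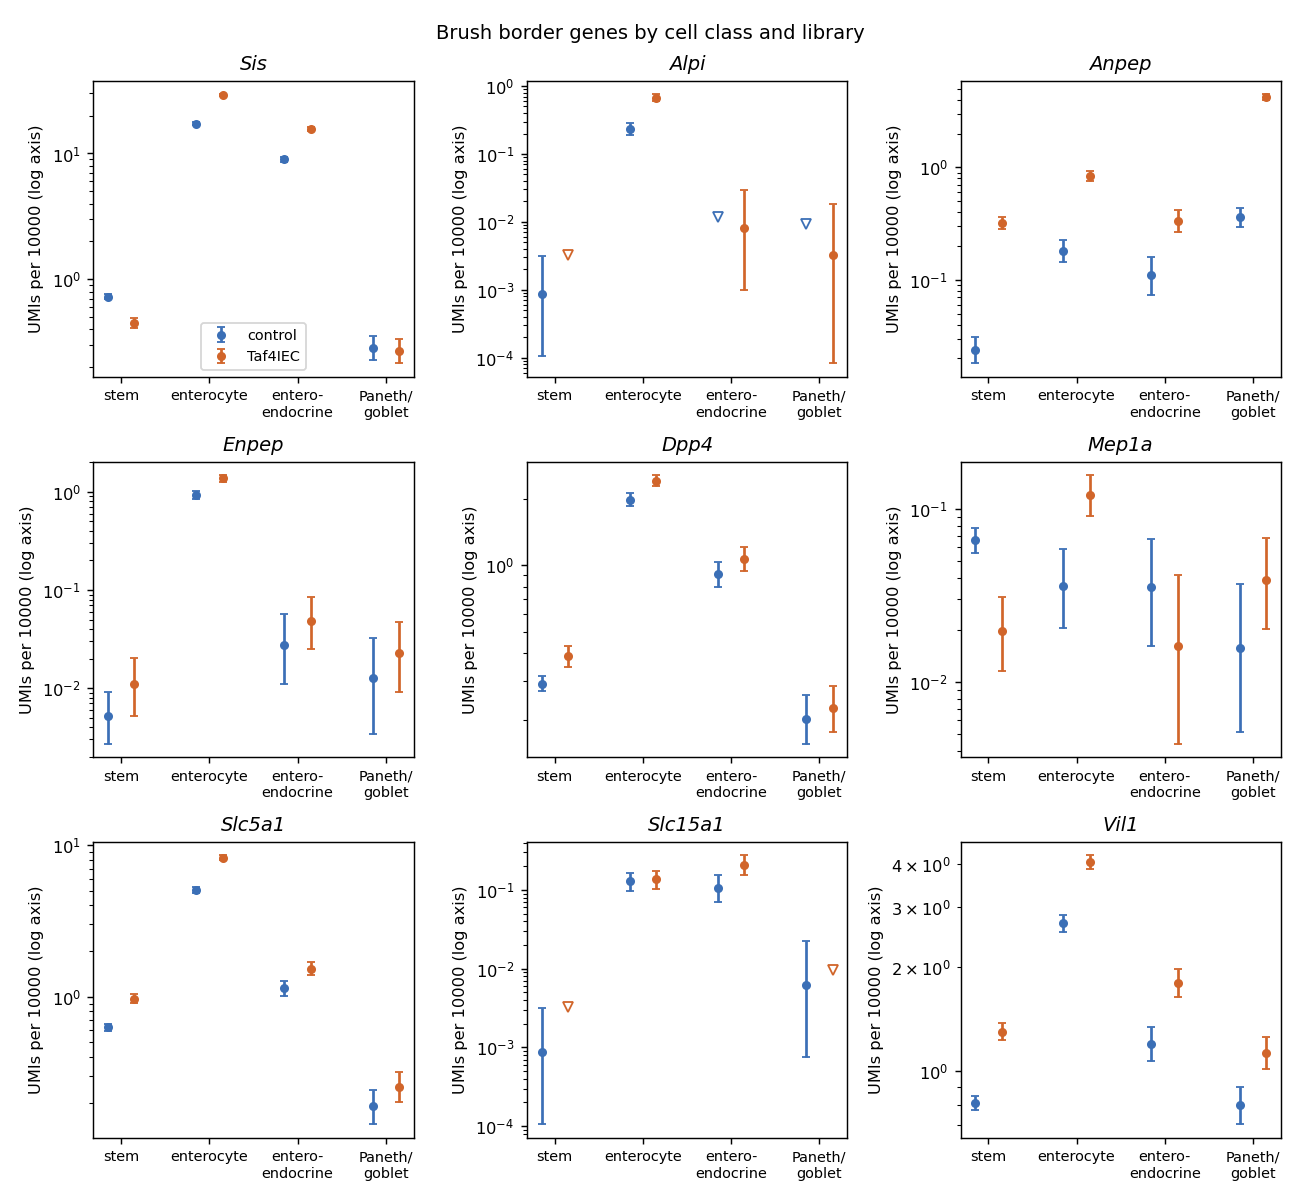
Level of each gene (y axis, UMIs per 10000, log axis) in 4 cell classes (x axis) of the control (blue) and *Taf4IEC* (orange) library, 1 library each. Bars are 95% exact Poisson intervals, and open triangles mark classes with 0 UMIs, drawn at the level of 3 UMIs. *Sis* stands at 8.98 and 15.7 in enteroendocrine-like cells, below its 17.3 and 28.9 in enterocyte-like cells, and *Anpep* is highest in Paneth/goblet-like cells.

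*Alpi* and *Enpep* marked enterocyte-like cells most sharply. In the control, *Alpi* had 103 UMIs in the 232 enterocyte-like cells (0.232 per 10000, 0.189 to 0.281) and 2 in the 1107 stem-like cells. It had 0 in Paneth/goblet-like and enteroendocrine-like cells, where the interval of 0 reaches 0.0116 and 0.0144. The *Taf4IEC* library gave 301 UMIs in enterocyte-like cells (0.671, 0.597 to 0.751) and 0, 1 and 2 in the other 3 classes. *Enpep* stood at 0.930 (0.842 to 1.02) and 1.38 (1.27 to 1.49) in enterocyte-like cells and at or below 0.048 in the other 3. Of all UMIs of *Alpi* in the library, 95.4% of the control and 80.7% of the *Taf4IEC* ones were in enterocyte-like cells, and of *Enpep* 88.1% and 72.6%.

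The other genes reached beyond enterocyte-like cells. *Vil1* was found in every class, at 2.69 (2.54 to 2.84) in enterocyte-like, 1.20 (1.07 to 1.34) in enteroendocrine-like, 0.810 (0.774 to 0.848) in stem-like and 0.797 (0.702 to 0.901) in Paneth/goblet-like control cells, of which the last 2 overlap. *Slc5a1* stood at 5.04 (4.84 to 5.26) in enterocyte-like and 0.630 (0.598 to 0.664) in stem-like control cells, 8.00-fold apart, and at 8.27 and 0.972 in the *Taf4IEC* library, 8.51-fold apart. *Dpp4* was 6.82-fold and 6.24-fold higher in enterocyte-like than in stem-like cells. The contrast for *Sis* was 23.7-fold in the control and 63.9-fold in the *Taf4IEC* library. Beside these, 11.9% of 7737 genes with at least 200 UMIs in the control and 10.6% of 5911 in the *Taf4IEC* library were at least 2-fold higher in enterocyte-like than in stem-like cells. Only 5 and 7 of the 9 genes reached 200 UMIs there, all of them past 2-fold, but a gene such as *Enpep* passed this minimum through its enterocyte-like UMIs. *Mep1a* went the other way in the control, with 151 UMIs in stem-like cells (0.0658, 0.0557 to 0.0772) and 16 in enterocyte-like cells (0.0360, 0.0206 to 0.0585), and these held 69.3% and 7.34% of its UMIs. In the *Taf4IEC* library *Mep1a* counted 18 UMIs in stem-like cells (0.0197, 0.0117 to 0.0311) and 54 in enterocyte-like cells (0.120, 0.0904 to 0.157).

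**Figure D2:**
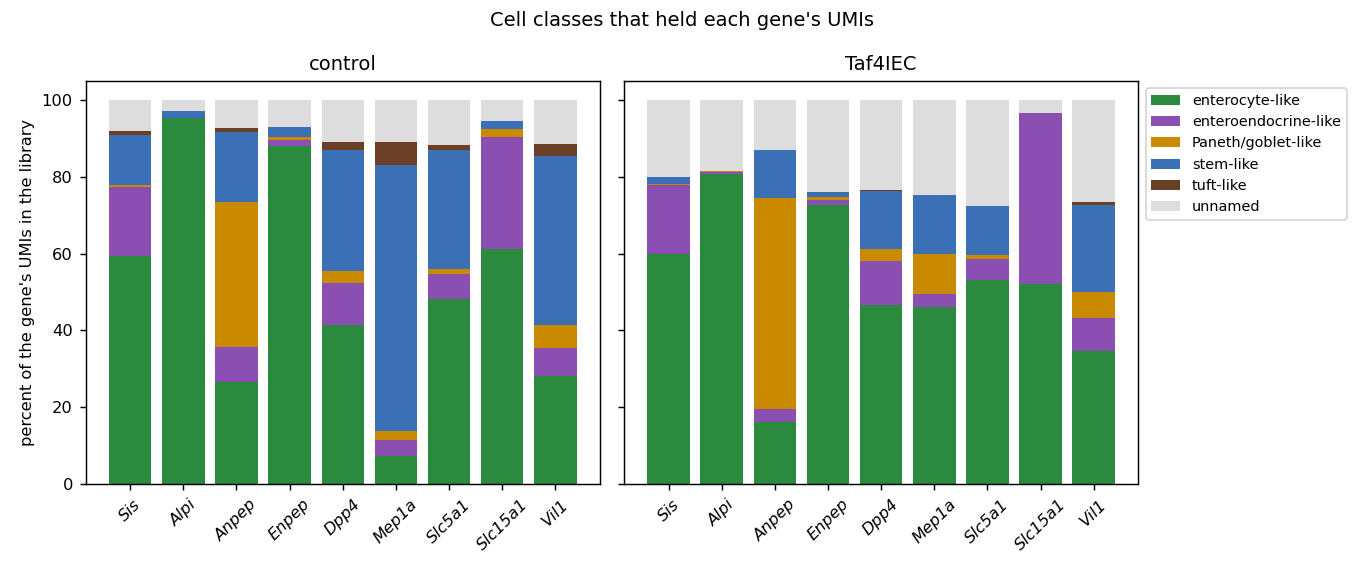
Percent of each gene's UMIs (y axis) found in each cell class, for the 9 genes (x axis) in the control (left) and *Taf4IEC* (right) library. Enterocyte-like cells hold 95.4% and 80.7% of *Alpi*, stem-like control cells hold 69.3% of *Mep1a*, and Paneth/goblet-like cells hold 37.7% and 55.0% of *Anpep*.

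*Sis* was also high in enteroendocrine-like cells, and *Slc15a1* was found in the same pair of classes. In the control, *Sis* stood at 8.98 (8.62 to 9.36) UMIs per 10000 in enteroendocrine-like and 17.3 (16.9 to 17.7) in enterocyte-like cells, and in the *Taf4IEC* library at 15.7 (15.2 to 16.2) and 28.9 (28.4 to 29.4). The level in enteroendocrine-like cells was thus 0.520 and 0.541 times that in enterocyte-like cells and 12.4-fold and 34.6-fold above that in stem-like cells. *Slc15a1* counted 27 and 52 UMIs in enteroendocrine-like cells against 57 and 61 in enterocyte-like cells, and 2 and 0 in stem-like cells. Its level was 0.106 (0.0696 to 0.154) against 0.128 (0.0972 to 0.166) in the control, with overlapping intervals. In the *Taf4IEC* library it was 0.210 (0.157 to 0.275) against 0.136 (0.104 to 0.175), 1.54-fold higher in enteroendocrine-like cells. These intervals overlapped too, and the log2 ratio was 0.63 (0.06 to 1.18). Such levels in enteroendocrine-like cells were not seen for *Alpi*, which had 0 and 2 UMIs there, nor for *Enpep*, with 7 and 12. The ratio to enterocyte-like cells was not particular to *Sis* and *Slc15a1*. It was 0.458 and 0.443 for *Dpp4*, 0.447 and 0.448 for *Vil1*, and 0.608 and 0.397 for *Anpep*. For *Slc5a1* it was 0.226 and 0.185, and for the rare *Mep1a* 0.977 and 0.134. Above stem-like cells, *Dpp4* stood 3.12-fold and 2.76-fold and *Vil1* 1.48-fold and 1.39-fold.

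Depth was made equal for *Sis* by thinning each cell to 5000 UMIs, which leaves out 68 of the 260 control and 77 of the 201 *Taf4IEC* enteroendocrine-like cells. Thinning leaves the share of free RNA in a cell unchanged, and free RNA was not measured. A *Sis* UMI was then found in 82.3% (76.1 to 87.4) of 192 control and 83.1% (75.3 to 89.2) of 124 *Taf4IEC* enteroendocrine-like cells, against 9.14% (5.32 to 14.4) and 5.15% (1.69 to 11.6) of Paneth/goblet-like cells, 27.6% and 13.0% of stem-like cells, and 93.9% and 100% of enterocyte-like cells. Without thinning the shares in enteroendocrine-like cells were 81.2% and 84.1%, at median depths of 9991 and 12127 UMIs, and in Paneth/goblet-like cells 20.0% and 31.9%, at 16396 and 7598. The enterocyte markers did not follow *Sis* together. *Apoa1*, an apolipoprotein, stood at 0.172 and 0.218 in enteroendocrine-like against 15.7 and 29.3 in enterocyte-like cells, and *Fabp1*, a fatty acid binding protein, at 0.262 and 0.343 against 42.8 and 51.7. Of the 12 enterocyte markers, 11 and 10 had a UMI there, and the 12 summed to 19.7 and 44.1 UMIs per 10000. All 6 enteroendocrine-like clusters held *Sis*. In the control they stood at 9.94 (9.51 to 10.4) for 166 cells led by *Gcg* and *Nts*, at 5.34 (4.68 to 6.05) for 51 cells led by *Tac1* and *Chgb*, and at 4.65 (3.20 to 6.53) for 43 shallow cells with a median of 881 UMIs. In the *Taf4IEC* library they stood at 16.1 (15.6 to 16.7), 14.9 (12.9 to 17.2) and 13.1 (11.9 to 14.4) for 99, 73 and 29 cells. The cluster of 73 was shallow too, with a median of 1036 UMIs, and held *Apoa1* at 1.56 and *Fabp1* at 2.97, against 0.0789 and 0.163 in that of 99.

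**Figure D3:**
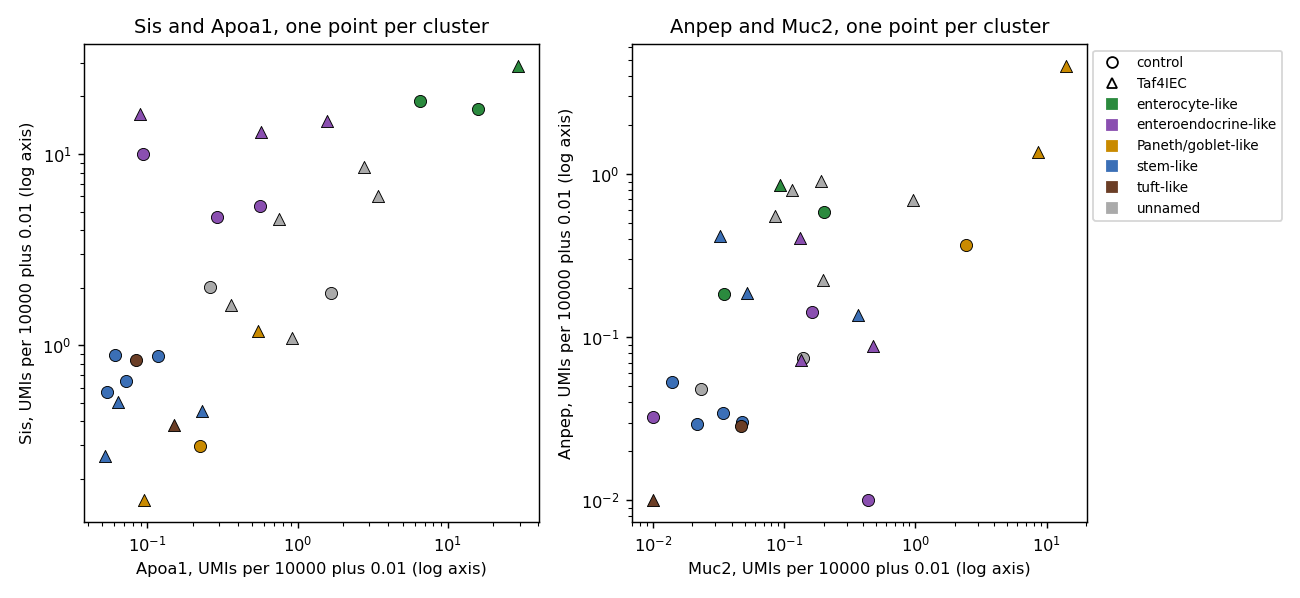
Each point is 1 cluster of the control (circles) or *Taf4IEC* (triangles) library, coloured by class, on log axes of UMIs per 10000 plus 0.01. On the left *Sis* (y) is set against the enterocyte marker *Apoa1* (x), where all 6 enteroendocrine-like clusters lie at high *Sis* and low *Apoa1*. On the right *Anpep* (y) is set against the mucin gene *Muc2* (x), where the *Taf4IEC* Paneth/goblet-like cluster at 4.61 lies highest.

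*Anpep* was highest in Paneth/goblet-like cells, in both libraries. It gave 114 UMIs (0.359, 0.296 to 0.431) in these control cells and 1294 (4.21, 3.99 to 4.45) in the *Taf4IEC* ones, a log2 ratio of 3.55 (3.28 to 3.84). Enterocyte-like cells stood at 0.180 (0.143 to 0.224) and 0.843 (0.760 to 0.932), for a log2 ratio of 2.23 (1.87 to 2.59), and stem-like cells at 0.0240 (0.0181 to 0.0312) and 0.321 (0.285 to 0.360), one of 3.74 (3.32 to 4.19). Thus *Anpep* was higher in the *Taf4IEC* library in each of the 4 classes compared, enteroendocrine-like cells included (0.110 and 0.335). At 5000 UMIs per cell, 1.11% of 1085 control and 5.93% of 270 *Taf4IEC* stem-like cells had an *Anpep* UMI, with a highest value of 4 and 14. Within the *Taf4IEC* Paneth/goblet-like cells, a deep cluster of 86 cells (median 32360 UMIs) led by *Zg16* and *Muc2* held 4.61 (4.36 to 4.87), and a shallow one of 99 cells (median 961 UMIs) led by defensins 1.36 (1.01 to 1.79). At 5000 UMIs per cell, 41.2% (31.3 to 51.7) of 97 *Taf4IEC* and 10.9% (6.66 to 16.4) of 175 control Paneth/goblet-like cells had an *Anpep* UMI, with a median of 0 in both and a highest value of 30 and 5 UMIs. Its distribution was thus uneven within the class. Among cells of this class with at least 2000 UMIs, a split chosen after the values were seen set those with more UMIs of 8 Paneth markers apart from those with as many or more of 8 goblet markers. In the *Taf4IEC* library these stood at 3.71 (3.22 to 4.25, 26 cells) and 4.41 (4.15 to 4.68, 83 cells), and in the control at 0.0588 (0.0121 to 0.172, 31 cells) and 0.418 (0.344 to 0.503, 154 cells). The markers of this class differed as well: *Muc2* stood at 2.42 and 13.4 and *Lyz1*, lysozyme, at 32.6 and 112 UMIs per 10000. *Lyz1* was also higher in *Taf4IEC* stem-like (0.414 and 2.16), enterocyte-like (0.266 and 0.963) and enteroendocrine-like cells (4.28 and 17.5). *Muc2* was so in stem-like (0.0209 and 0.0918) and enterocyte-like cells (0.0270 and 0.0825), but its intervals overlapped in enteroendocrine-like cells (0.133 and 0.141). The part of these markers in the *Anpep* differences was not tested.

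Within enterocyte-like cells, 8 of the 9 genes had an interval above 0 and *Slc15a1* did not. The share of all genes with such an interval was not computed. In the other lists described below, 6 of 9 hydrolases, 6 of 10 transporters and 13 of 15 structural genes had one, while 2, 0 and 0 had one below 0. Summed, the 9 genes stood at 28.5 and 46.8 UMIs per 10000, a log2 ratio of 0.72 (0.68 to 0.75). *Anpep* led, although it turned to -0.25 on 5 and 3 UMIs when each cell was thinned to 500 UMIs, followed by *Mep1a* with 1.74 (0.91 to 2.64) on 16 and 54 UMIs and *Alpi* with 1.53 (1.20 to 1.87), and these 3 of 9 were at least 2-fold higher. *Mep1a* and *Slc15a1* had under 200 UMIs in these cells, so that 2 of 7 genes stand beside the 1.47% of 3874 genes at least 2-fold higher, and 0 of 7 beside the 1.52% at least 2-fold lower. *Sis* had a log2 ratio of 0.74 (0.70 to 0.79), *Slc5a1* 0.71 (0.64 to 0.79), *Vil1* 0.59 (0.48 to 0.69), *Enpep* 0.57 (0.38 to 0.75), *Dpp4* 0.28 (0.15 to 0.41) and *Slc15a1* 0.08 (-0.46 to 0.63). The median over the 9 genes was 0.71 and over all 3874 genes -0.01. Where 3 other clusterings drew the enterocyte-like class, *Dpp4* turned to -0.22, -0.10 and -0.12, *Slc15a1* stood at -0.91, -0.70 and -0.75, and *Enpep* turned to -0.060 in the first of them, and the summed ratio was then as low as 0.16.

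**Figure D4:**
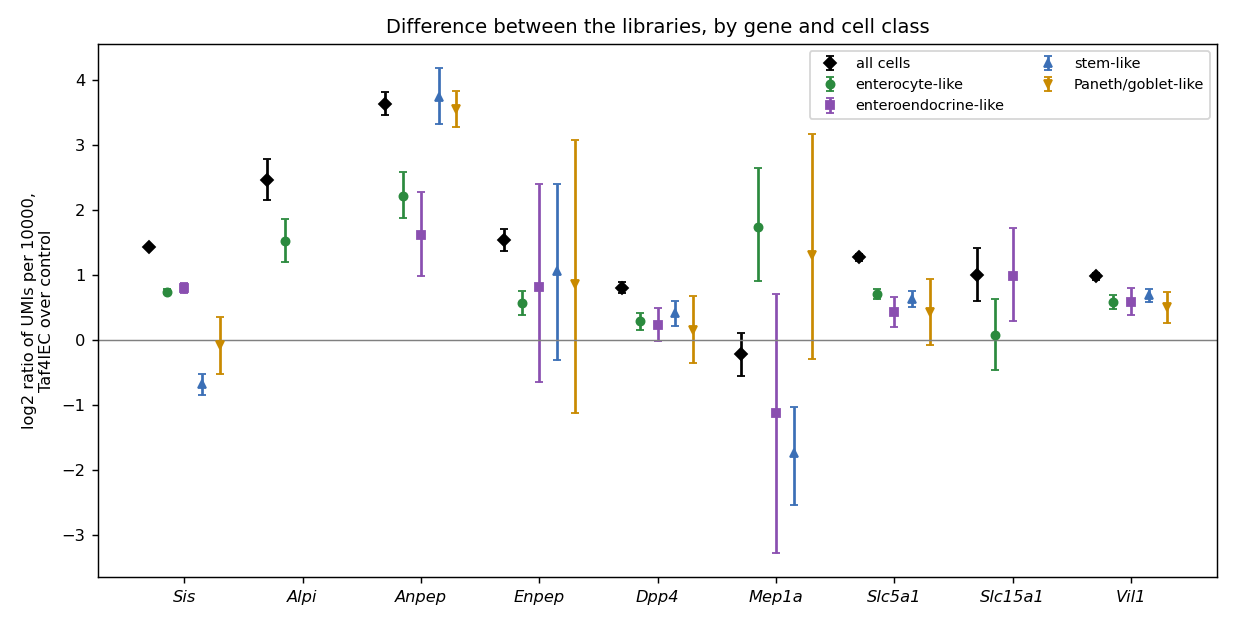
Log2 ratio of UMIs per 10000, *Taf4IEC* over control (y axis), for each gene (x axis), over all cells and in 4 classes. Bars are 95% counting intervals, and classes with 3 or fewer UMIs in a library are not drawn. *Anpep* lies above 0 in all 4 classes, while *Sis* and *Mep1a* lie above 0 in enterocyte-like and below 0 in stem-like cells.

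The makeup of the enterocyte-like class differed between the libraries. The control class held 211 cells (median 21761 UMIs) and a cluster of 21 shallow cells (median 2423) led by *Fabp6* and *Reg3a*, and the *Taf4IEC* class was a single cluster of 165 cells (median 32995), all 3 led by enterocyte markers. Their 12 markers summed to 171 and 221 UMIs per 10000, but the markers differed in both directions. Of 11 with at least 200 UMIs, 8 had an interval above 0 and 3 below, with a median log2 ratio of 0.27. *Apoa1* stood at 15.7 and 29.3, whereas *Apoa4*, another apolipoprotein, stood at 18.0 and 7.29 and *Fabp6* at 1.15 and 0.702. Their part in the differences of the 9 genes was not tested. A pair of unnamed clusters led by *Tmem237* or *Nupr1*, 255 control and 151 *Taf4IEC* cells, held 4.64 (4.44 to 4.85) and 17.1 (16.7 to 17.5) UMIs per 10000 of the 9 genes, with *Sis* at 2.00 and 8.53 and *Apoa1* at 0.25 and 2.75. The 3 clusterings with the lowest summed ratios (0.16, 0.30 and 0.31) put 99.3%, 80.8% and 62.3% of the *Taf4IEC* cells of this pair, and at most 1.57% of the control ones, among the enterocyte-like cells. A pair of clusterings with high summed ratios (0.94 and 0.93) instead put 25.5% of the control cells and 0% and 1.99% of the *Taf4IEC* ones there. With both added to the class the summed log2 ratio was 0.94.

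More of the 9 genes were detected per enterocyte-like cell in the *Taf4IEC* library. At 5000 UMIs per cell, which leaves out 34 control and 57 *Taf4IEC* cells, the median enterocyte-like cell held UMIs of 3 of the 9 genes in the control (198 cells) and 5 in the *Taf4IEC* library (108 cells), and 23.2% and 50.9% of cells held 5 or more, against 0% of stem-like cells in both. *Sis* had a lowest, median and highest count of 0, 7 and 44 in the control and 1, 14 and 37 in the *Taf4IEC* library, and *Slc5a1* of 0, 2 and 14 and of 0, 3 and 20. The ranges overlapped throughout, and the highest *Sis* count was a control cell. *Alpi* was found in 6.57% (3.54 to 10.97) and 25.9% (18.0 to 35.2) of these cells, *Anpep* in 7.58% (4.30 to 12.2) and 19.4% (12.5 to 28.2), and *Dpp4* in 54.0% (46.8 to 61.1) and 75.0% (65.7 to 82.8). *Slc5a1* was found in 81.8% (75.7 to 86.9) and 93.5% (87.1 to 97.4). The intervals did not overlap for these 4 genes. They did for *Enpep* (31.8% and 38.0%), *Slc15a1* (5.56% and 8.33%), *Vil1* (66.7% and 80.6%), *Mep1a* (1.52% and 6.48%) and *Sis* (93.9% and 100%). The share of all genes whose intervals did not overlap was not computed, and cells of 1 library are not replicates of its condition.

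**Figure D5:**
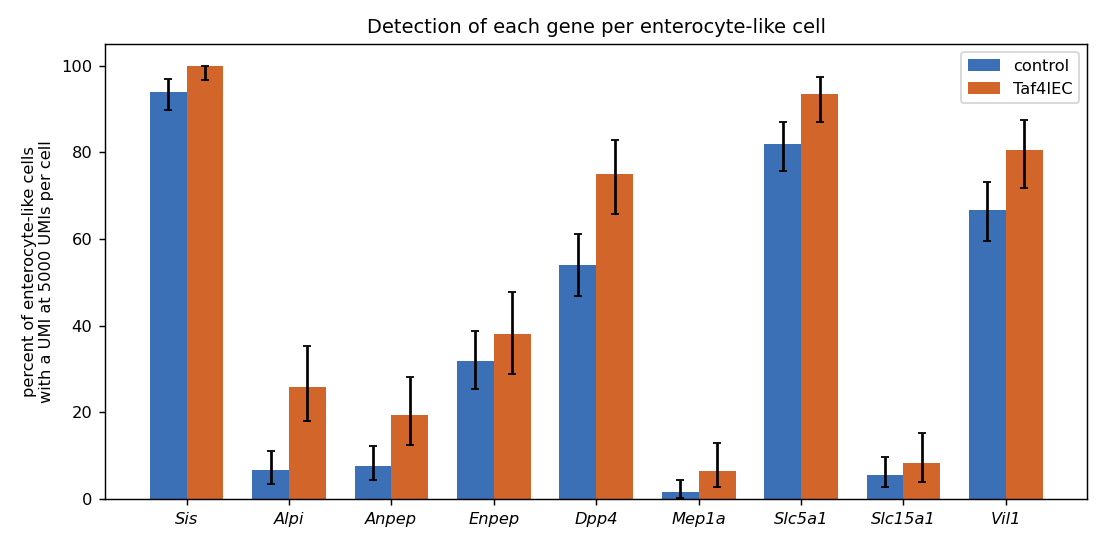
Percent of enterocyte-like cells with at least 1 UMI (y axis) of each gene (x axis) after each cell was thinned to 5000 UMIs, in 198 control (blue) and 108 *Taf4IEC* (orange) cells, with Clopper-Pearson intervals. *Sis* is found in 93.9% and 100% of cells, and *Alpi*, *Anpep*, *Dpp4* and *Slc5a1* have intervals that do not overlap.

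Stem-like and enteroendocrine-like cells gave their own patterns between the libraries. In stem-like cells, *Vil1* had a log2 ratio of 0.69 (0.58 to 0.79), *Slc5a1* 0.63 (0.50 to 0.75) and *Dpp4* 0.41 (0.22 to 0.60), while *Sis* was lower, at 0.727 (0.693 to 0.763) and 0.452 (0.410 to 0.498) UMIs per 10000. Enteroendocrine-like cells gave a *Sis* log2 ratio of 0.80 (0.73 to 0.88), near the 0.74 of enterocyte-like cells, and one of 0.59 (0.38 to 0.80) for *Vil1*. Paneth/goblet-like cells held 0.287 (0.231 to 0.352) and 0.270 (0.215 to 0.335) of *Sis*, with overlapping intervals, so that the higher *Sis* level of the library was not seen there. Shallow unnamed cells held *Sis* too. The largest unnamed cluster of each library held it at 1.88 in 429 control cells (median 1185 UMIs) and at 6.004 in 489 *Taf4IEC* cells (median 618), with *Apoa1* at 1.66 and 3.41.

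Other genes of the brush border and of nutrient transport were taken from lists that hold none of the 9. Over all cells, of 10 other hydrolases with at least 200 UMIs (of 16 listed), 6 were at least 2-fold higher and 0 lower, among them *Mep1b*, the partner subunit of *Mep1a*, with a log2 ratio of 1.85 (1.64 to 2.07). *Mme*, the endopeptidase neprilysin, had one of -0.94 (-1.35 to -0.55). Of 16 other transporters (of 23 listed), 9 were at least 2-fold higher and 0 lower, with *Slc2a2*, a facilitative glucose transporter, at 1.41 (1.27 to 1.56) and *Slc1a1*, a glutamate transporter, at -0.74 (-0.97 to -0.52). Of 16 genes of microvillus structure (of 17 listed), 2 were at least 2-fold higher, the protocadherins *Cdhr2* (1.12) and *Cdhr5* (1.25). The medians of the 3 lists were 1.05, 1.12 and 0.55. Within enterocyte-like cells the medians were 0.30, 0.32 and 0.41, with 1 of 9 hydrolases, 0 of 10 transporters and 0 of 15 structural genes at least 2-fold higher, where *Mme* was lower by more than 2-fold at -1.65 (-2.08 to -1.24). *Lct*, lactase, had a log2 ratio of -0.60 (-0.99 to -0.23) in these cells.

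Across 13 clusters of at least 20 cells in each library, the 5 genes whose level was most like that of the 9 summed, of which *Sis* is the larger part, included *Npc1l1*, *Pklr* and *Sult1d1*. The Pearson correlations of log2(UMIs per 10000 + 0.1) were 0.955 and 0.962 for *Npc1l1*, the cholesterol uptake protein, in the control and the *Taf4IEC* library, and 0.954 and 0.928 for *Pklr*, a pyruvate kinase. Of the 9 themselves, *Sis* gave 0.986 and 0.927, *Dpp4* 0.924 and 0.861 and *Slc15a1* 0.902 and 0.715, while *Anpep* gave 0.490 and 0.011. The clusters of a library share its capture and differ in depth, so that these correlations are descriptions.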

How the data were processed

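The data are single-cell 3′ transcript counts of a control and a *Taf4IEC* library, 1 each. The authors aligned reads to mm10 and counted UMIs with Cell Ranger 3.1. They kept cells with under 15% mitochondrial reads and a set range of genes, given once for both libraries. The deposited cells held 272 to 4999 genes in the control and 269 to 5997 in the *Taf4IEC* library. Whether the upper limit differed between the libraries is not given, and its part in depth and levels was not tested. The deposited files hold these counts unnormalized. The 9 genes and all lists were chosen with earlier results of these data known. Each library was clustered in Seurat 5.3.0 (2000 variable genes without the 9, UMI count and mitochondrial percent regressed out, 20 principal components, resolution 0.9). A cluster took the class with the most markers at 1.5 times the mean level of both libraries, at least 3 of them with 10 UMIs each, unless its 10 leading genes spoke for another class or for poor quality. Levels are UMIs per 10000 summed over cells. Scrublet in scanpy 1.11.5 marked 10 and 0 cells, too few to show that doublets were found, and they were kept. Named genes were the 9, *Taf4*, the listed genes and the 5 most alike. Some genes that this rule names are not reported here. *Dll1*, *Insm1*, *Nts*, *Reg3a*, *Tmem237* and *Nupr1*, which led clusters, were chosen with their values seen. Python 3.11.15, scipy 1.17.1 and R 4.3.3 were used. The intervals, the 2-fold calls and the thinning were tested on simulated Poisson counts, which hold no further variation between cells or libraries. Clustering and cluster naming were not tested in this way.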

Additional observations from a re-analysis of the deposited data

Results flagged for a closer look

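*Sis* and *Mep1a* differed between the libraries in opposite directions in 2 cell classes, each with a counting interval that lies beyond 0. *Sis* had a log2 ratio of 0.74 in enterocyte-like cells and of -0.69 (-0.84 to -0.53) in stem-like cells, and *Mep1a* of 1.74 and -1.74 (-2.54 to -1.03). The difference between the classes was not tested, since there was 1 library per condition. Stem-like cells were made up of 4 clusters in the control and 3 in the *Taf4IEC* library, of which 213 of 429 cells had a median of 2386 UMIs. The size of this class depended on the settings. With markers counted from 2 times the mean level it held 473 control and 33 *Taf4IEC* cells, and with both libraries clustered together 1131 and 55. The stem-like ratios were not computed under these settings.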

How the results depend on the processing

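The summed log2 ratio over all cells (1.35) stayed above 0 in all 6 alternatives. It was 1.14 with each cell weighted equally, 1.27 with each cell thinned to 500 UMIs, 1.17 with mitochondrial and ribosomal genes left out of the total, and 0.83 at the class shares of the control, where 2 genes in place of 6 were at least 2-fold higher. In enterocyte-like cells the summed log2 ratio (0.72) stayed above 0 in all 16 alternatives. It was 0.78 with equal weights, 0.89 with thinning, 0.63 without mitochondrial and ribosomal genes, 0.16 and 0.94 at resolutions of 0.5 and 1.4, 0.30 with 10 principal components, 0.93 with the 9 genes kept among the variable genes, 0.61 with all brush border lists left out, 0.31 with both libraries clustered together, 0.55 with a gate on each cell, and 0.94 with the clusters led by *Tmem237* and *Nupr1* added. The number of genes at least 2-fold higher there was 3, which became 2 with equal weights, at resolution 0.5, with 10 principal components and with both libraries together, and 6 at a threshold of 1.5. *Slc15a1* there (0.08, an interval that spans 0) was above 0 in 10 of 16 alternatives, at -0.91 at resolution 0.5, -0.70 with 10 principal components, -0.75 with both libraries together, -0.34 with the gate and 2.08 with thinning. Reversed were *Dpp4* (-0.22 at resolution 0.5, -0.10 with 10 principal components, -0.12 with both libraries together), *Enpep* (-0.060 at resolution 0.5) and *Anpep* (-0.25 with thinning to 500, which left 5 and 3 UMIs). At resolution 0.5 the *Taf4IEC* class grew from 165 to 314 cells. Counts of genes at least 2-fold lower were 0 throughout. *Anpep* in Paneth/goblet-like cells ranged from 3.14 to 4.13 over 11 alternatives, and *Sis* in enteroendocrine-like over stem-like cells from 3.53 to 3.92 in the control and from 4.62 to 6.22 in the *Taf4IEC* library over 9. No paired analysis was possible because each group has 1 library. The added counts of higher genes, the class shares, the added or omitted clusters and the settings for *Anpep* and *Sis* were chosen after seeing the data.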
